A study of Bos taurus with 44 samples.

Results

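Immunoglobulin G that has bound an antigen acts on leukocytes through Fc receptors, and 4 genes of this system are described here in blood mononuclear cells of Holstein cows: the Fc receptor gamma chain FCER1G, the activating receptors FCGR1A and FCGR3A, and the inhibitory receptor FCGR2B. They were taken as the spots of a cDNA array whose annotation gave one of these symbols alone, which gave 8 spots of 1 clone for each gene, or 32 of 1680 spots, and 4 of 141 named genes. In mice and humans FCER1G carries the activation motif through which FCGR1A and FCGR3A signal, FCGR1A binds monomeric immunoglobulin G with high affinity and FCGR3A binds immune complexes, whereas FCGR2B carries its own inhibitory motif and dampens B cells and myeloid cells. In those species FCER1G and FCGR1A are typical of myeloid cells, FCGR3A of natural killer cells and part of the monocytes, and FCGR2B of B cells and myeloid cells.

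Cows had been immunized to raise an antibody response, Ab in the labels, and a cell-mediated one, DTH, and blood was drawn after 6 days. The groups were high-Ab, high-DTH, low-Ab and low-DTH, with 3 cows each. One cow, called the shared cow, was labelled high for both traits and counted in both high groups, so that 11 cows were taken to be present: the shared cow, 2 further high-Ab cows, 2 further high-DTH cows, 3 low-Ab cows and 3 low-DTH cows. The labels give no animal identities, and a cow number that recurs in another group was read as another animal. All cows were Holsteins that received the same kind of immunization, and their mononuclear cells were separated on a Percoll gradient and used without further treatment. Each of the 44 arrays set amplified RNA of 1 cow against a common RNA standard, with 4 arrays per cow except 5 for high-DTH cow 2 and 3 for low-DTH cow 3.

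Values are deposited log ratios, read here as log2 and as cow over standard, neither of which the sources used here state. A value of 0 is therefore a level equal to that of the standard, and no level can be set against that of another gene. Arrays of a cow were averaged to 1 value per cow. On 3 arrays, 1 and 2 of low-Ab cow 1 and 3 of low-DTH cow 3, the ratios ran against those of the other arrays, with a mean r with arrays of other cows between −0.23 and −0.20, against at least 0.05 for the other 41. The sign of these arrays is not settled, so values are given as deposited and, where it matters, also with the 3 arrays turned. In such bulk samples fewer cells of a type and less RNA per cell cannot be told apart.

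The 4 genes varied very differently from cow to cow. FCGR3A spanned a 3.12-fold range between the lowest and the highest cow and FCER1G a 2.63-fold range, whereas FCGR2B spanned 1.49-fold and FCGR1A 1.23-fold. None of the 4 passed adjustment in any comparison of high with low cows. The member with the clearest difference was FCER1G, whose ratios were lower in each high-Ab cow than in each low-Ab cow.

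**Figure D1:**
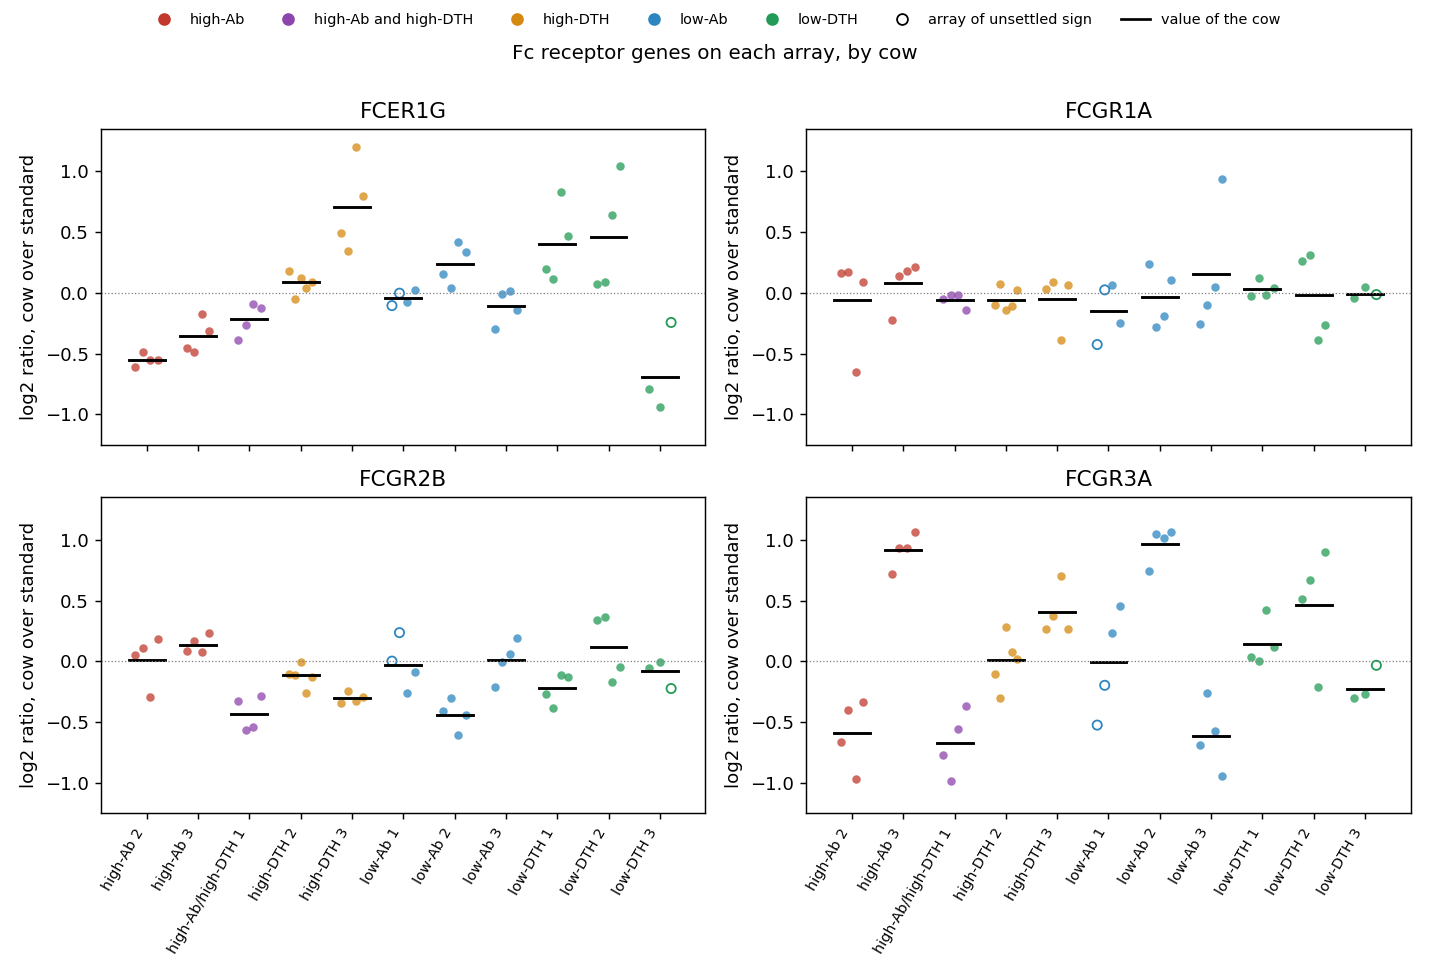
Log2 ratio of each gene (vertical axis) on each array, averaged over its 8 spots, for the 11 cows (horizontal axis), with high cows left of low cows. Points are arrays, open points the 3 arrays of unsettled sign, and bars the value of the cow. The arrays of high-Ab cow 3 and low-Ab cow 2 lie high for FCGR3A, while FCGR1A bars stay between −0.15 and 0.15.

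FCER1G, the shared signalling chain, had ratios of −0.22 in the shared cow, −0.55 in high-Ab cow 2 and −0.36 in high-Ab cow 3, against −0.04, 0.24 and −0.11 in low-Ab cows 1 to 3. The groups did not overlap, and all 3 high-Ab cows lay below the standard. The difference was −0.40 ± 0.14 (SE, n = 3 cows each; 95% interval −0.74 to −0.07), a high-Ab ratio 0.755 of the low-Ab ratio. limma gave an unadjusted p of 0.0247 and an adjusted p of 0.571 over 562 features, so the difference did not pass the threshold of 0.05. The gene ranked 5 of 141 by p.

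Of the 4 genes, 0 passed adjustment in the comparison of high-Ab with low-Ab cows, where 0% of all features did, with 37 at an unadjusted p under 0.05. FCER1G was the 1 member with an unadjusted p under 0.05, which 7.09% of the 141 named genes had. It was also the 1 member without overlap between the groups, which 10.6% of the named genes showed. An exact permutation test of the cows gave p = 0.1 (two-sided), the smallest that 3 against 3 cows can give. With the 3 arrays turned the difference was −0.42 ± 0.13 with an adjusted p of 0.428.

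Array by array, FCER1G lay between −0.61 and −0.49 in high-Ab cow 2, between −0.49 and −0.17 in high-Ab cow 3 and between −0.39 and −0.09 in the shared cow. In the low-Ab group the arrays lay between −0.11 and 0.03 in cow 1, between 0.04 and 0.41 in cow 2 and between −0.30 and 0.02 in cow 3. All 12 arrays of the high-Ab cows were below 0. Fitted over arrays with the cow as a random block, the difference of −0.40 ± 0.10 passed (adjusted p = 0.0284, limma), in a fit that called 16 features, or 2.85%, and with the 3 arrays turned it passed as well (−0.42, adjusted p = 0.0136). That fit draws its degrees of freedom from arrays, which are technical replicates of a cow.

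Arrays numbered 3 or higher gave higher FCER1G ratios than arrays 1 and 2 in 10 of 11 cows, by a mean of 0.30 ± 0.27 (SD). What the array number stands for is not given in the sources used here. Within each set the high-Ab difference had a similar size, at −0.41 ± 0.12 over arrays 1 and 2 and −0.40 ± 0.19 over the later arrays. It was −0.40 over arrays with the cow in Alexa647 and −0.41 over those with the cow in Alexa555.

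The same gene did not separate the cell-mediated groups. FCER1G had ratios of −0.22 in the shared cow, 0.09 in high-DTH cow 2 and 0.71 in high-DTH cow 3, against 0.40, 0.46 and −0.69 in low-DTH cows 1 to 3. The groups overlapped, and low-DTH cow 3, whose array 3 has an unsettled sign, was the lowest of all 11 cows. The difference was 0.14 ± 0.38 (adjusted p = 0.912, limma), and it was −0.24 without low-DTH cow 3. The group means were −0.37 ± 0.17 in high-Ab, 0.19 ± 0.47 in high-DTH, 0.03 ± 0.18 in low-Ab cows and 0.06 ± 0.65 in low-DTH cows (SD, n = 3 each). High-Ab had the lowest mean, and those of high-DTH, low-Ab and low-DTH did not differ from each other beyond their spread.

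The 2 further high-DTH cows, at 0.09 and 0.71, lay above the 2 further high-Ab cows, at −0.55 and −0.36, with no test at this number. The test of whether the high-minus-low difference differed between the traits gave −0.54 ± 0.39 for FCER1G (Ab effect minus DTH effect, adjusted p = 0.820, limma), which did not pass. Without low-DTH cow 3 this value was −0.17.

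FCGR3A, the low-affinity activating receptor also known as CD16, had the widest range. Its ratios were −0.67 in the shared cow, −0.59 in high-Ab cow 2 and 0.91 in high-Ab cow 3, against −0.01, 0.97 and −0.62 in low-Ab cows 1 to 3. Each Ab group therefore held both low and high cows. The difference of −0.23 ± 0.55 (95% interval −1.56 to 1.10, adjusted p = 0.999, limma) was imprecise in both directions. It was −0.75 without high-Ab cow 3 and 0.20 without low-Ab cow 2.

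The FCGR3A values of single cows stood apart from array to array. High-Ab cow 3 lay between 0.72 and 1.07 on its 4 arrays, and low-Ab cow 2 between 0.75 and 1.06. High-Ab cow 2 lay between −0.97 and −0.34, the shared cow between −0.98 and −0.37 and low-Ab cow 3 between −0.94 and −0.26. The arrays of the first pair of cows did not overlap with those of the other 3. On the lowest array of low-Ab cow 3 the 8 spots disagreed, with an SD of 0.97 between spots, against a median SD of 0.10 over all 44 arrays.

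In low-Ab cow 1 the sign matters for FCGR3A. Its arrays 1 and 2, of unsettled sign, gave −0.52 and −0.20, and its arrays 3 and 4 gave 0.23 and 0.46. The value of this cow was −0.01 as deposited and 0.35 with the arrays turned, and the high-Ab difference was then −0.35 ± 0.56.

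In the cell-mediated groups FCGR3A had ratios of −0.67 in the shared cow, 0.01 in high-DTH cow 2 and 0.40 in high-DTH cow 3, against 0.15, 0.47 and −0.23 in low-DTH cows 1 to 3. The groups overlapped. The difference of −0.21 ± 0.31 did not pass (adjusted p = 0.851, limma) and was 0.08 without the shared cow. The group means were −0.12 ± 0.89 in high-Ab, −0.09 ± 0.54 in high-DTH, 0.11 ± 0.80 in low-Ab cows and 0.13 ± 0.35 in low-DTH cows (SD, n = 3 each), and no 2 of them differed beyond their spread.

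FCGR2B, the inhibitory receptor also known as CD32, had ratios of −0.43 in the shared cow, −0.11 in high-DTH cow 2 and −0.30 in high-DTH cow 3, against −0.22, 0.12 and −0.08 in low-DTH cows 1 to 3. All 3 high-DTH cows lay below the standard, and only low-DTH cow 1 reached into their range. The difference was −0.22 ± 0.13 (95% interval −0.54 to 0.10, unadjusted p = 0.149, adjusted p = 0.63, limma), and −0.26 ± 0.13 with the arrays turned. It kept its direction without each cow in turn, between −0.31 and −0.13.

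Of the 4 genes, 0 passed adjustment between high-DTH and low-DTH cows, where 0% of all features did and 55 had an unadjusted p under 0.05. None of the 4 had an unadjusted p under 0.05, against 8.51% of the named genes. FCGR1A alone of the 4 had groups without overlap, which 15.6% of the named genes showed.

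In the antibody groups FCGR2B had ratios of −0.43 in the shared cow, 0.01 in high-Ab cow 2 and 0.14 in high-Ab cow 3, against −0.03, −0.44 and 0.01 in low-Ab cows 1 to 3. The shared cow and low-Ab cow 2 were the lowest of all 11 cows, so each Ab group held 1 low cow. The difference was 0.06 ± 0.19 (adjusted p = 0.999, limma). It was 0.23 without the shared cow and −0.08 without low-Ab cow 2. Between the traits the FCGR2B differences were 0.28 ± 0.19 apart (Ab effect minus DTH effect, adjusted p = 0.820), which did not pass.

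By group mean FCGR2B stood at −0.28 ± 0.16 in high-DTH, −0.09 ± 0.30 in high-Ab, −0.15 ± 0.25 in low-Ab cows and −0.06 ± 0.17 in low-DTH cows (SD, n = 3 each). All 4 means were below the standard. From the lowest to the highest they ran high-DTH, low-Ab, high-Ab and low-DTH, and neighbours in that order did not differ beyond their spread. High-DTH cow 3 gave the tightest set of FCGR2B arrays, between −0.34 and −0.24.

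FCGR1A, the high-affinity receptor also known as CD64, stayed near the standard in all 11 cows. Its ratios were −0.06 in the shared cow, −0.06 in high-Ab cow 2 and 0.08 in high-Ab cow 3, against −0.15, −0.03 and 0.15 in low-Ab cows 1 to 3. The high-Ab cows lay inside the range of the low-Ab cows as deposited. With the arrays turned low-Ab cow 1 stood at 0.05, the shared cow and high-Ab cow 2 lay below all low-Ab cows, and the difference was −0.07 ± 0.09. The difference was −0.00 ± 0.11 with a 95% interval of −0.27 to 0.26 (adjusted p = 0.999, limma), that is between 0.827-fold and 1.20-fold.

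FCGR1A had ratios of −0.06 in high-DTH cow 2 and −0.05 in high-DTH cow 3, with the shared cow at −0.06, against 0.03, −0.02 and −0.01 in low-DTH cows 1 to 3. The high-DTH cows all lay below the low-DTH cows, but by only −0.05 ± 0.08 (adjusted p = 0.851, limma; exact permutation p = 0.1, the smallest possible). The SD between arrays of a cow was 0.27 for this gene, larger than that difference. Single arrays stood apart in several cows. High-Ab cow 2 had −0.65 on array 3 against 0.09 to 0.17 on its other arrays, and low-Ab cow 3 had 0.93 on array 4 against −0.26 to 0.05. High-Ab cow 3 had −0.22 on array 1 against 0.14 to 0.21. High-DTH cow 3 had −0.39 on array 3 against 0.035 to 0.089 on its other arrays. Those other arrays of high-DTH cow 3 lay above the values of all low-DTH cows, so the lack of overlap rested on its array 3. The group means were −0.01 ± 0.08 in high-Ab, −0.06 ± 0.01 in high-DTH, −0.01 ± 0.15 in low-Ab cows and −0.00 ± 0.03 in low-DTH cows (SD, n = 3 each). Those of high-Ab, low-Ab and low-DTH did not differ beyond their spread. The SD of 0.01 in high-DTH cows was far below the 0.27 between arrays of a cow, so it does not show that this group stood apart.

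Set side by side, the high-Ab and the high-DTH differences, which share the shared cow, were −0.40 and 0.14 for FCER1G, −0.00 and −0.05 for FCGR1A, 0.06 and −0.22 for FCGR2B, and −0.23 and −0.21 for FCGR3A. The median of the 4 was −0.12 for Ab and −0.13 for DTH, beside −0.01 and −0.03 over the 141 named genes. In the test of the difference between the traits 0 of the 4 genes passed, against 1.25% of all features (7 of 561, and 0 with the 3 arrays turned). None of the 4 had an unadjusted p under 0.05 there, against 7.8% of the named genes.

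Over all cows, the 5 high cows were compared with the 6 low cows. FCER1G differed by −0.11 ± 0.25, FCGR1A by −0.02 ± 0.06, FCGR2B by −0.03 ± 0.12 and FCGR3A by −0.11 ± 0.33 (SE, each adjusted p = 0.996, limma). All 4 were below 0, as were 83 of the 141 named genes. Of the 4 genes 0 passed, against 0% of all features, of which 20 had an unadjusted p under 0.05. None of the 4 had an unadjusted p under 0.05, against 4.26% of the named genes, or groups without overlap, against 1.42%.

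**Figure D2:**
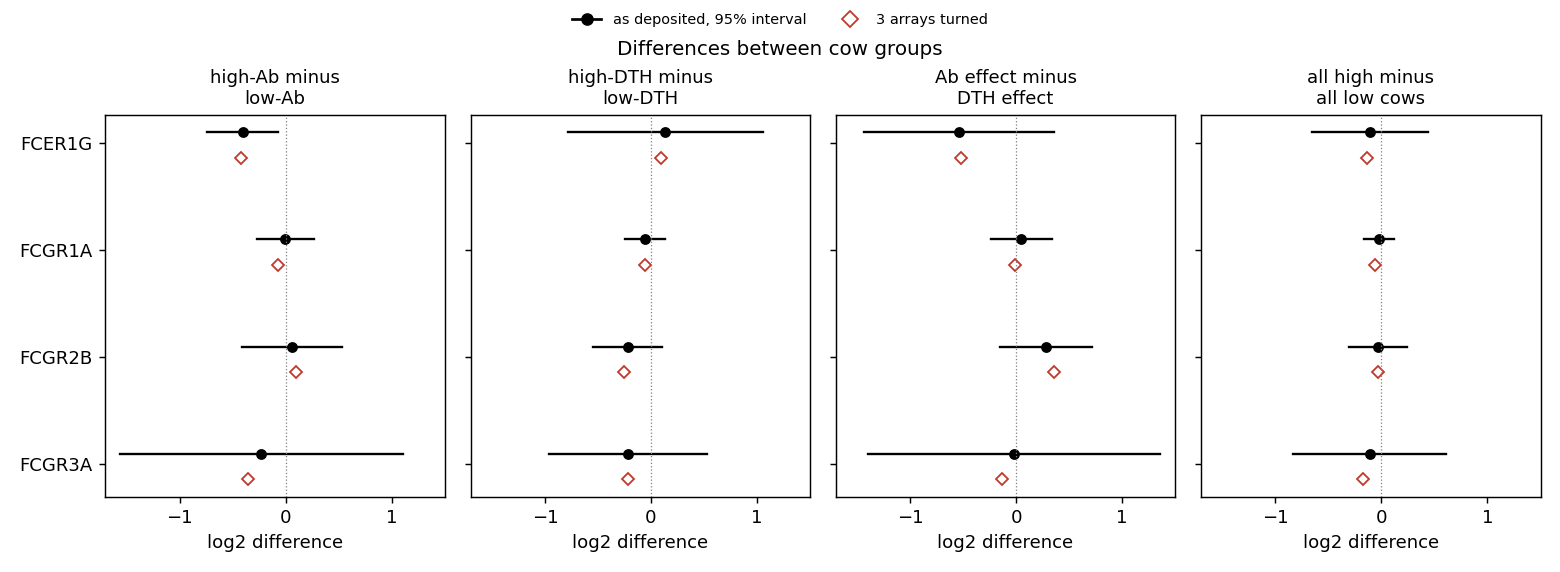
Log2 difference between groups (horizontal axis) for each gene (vertical axis) in the 4 comparisons. Black points with lines are values as deposited with their 95% intervals, and open diamonds are values with the 3 arrays of unsettled sign turned. The FCER1G interval between high-Ab and low-Ab cows, −0.74 to −0.07 before adjustment, is the one that does not reach 0.

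For 3 of the 4 genes the spread between cows within a group was large against the spread between arrays of the same cow. For FCGR3A the SD between cows was 0.68 and the SD between arrays 0.28, a ratio of 2.42 that ranked 1 among the 141 named genes. FCER1G had SDs of 0.43 and 0.24 and a ratio of 1.76, ranked 2. FCGR2B had smaller SDs of 0.19 and 0.16 with a ratio of 1.20, ranked 6. FCGR1A had 0.10 between cows and 0.27 between arrays, a ratio of 0.36 ranked 120, whereas the median named gene had 0.57 and spread between arrays alone would give about 0.50. FCGRT, a further Fc receptor on the array, had a ratio of 1.24, ranked 5 and so above FCGR2B.

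**Figure D3:**
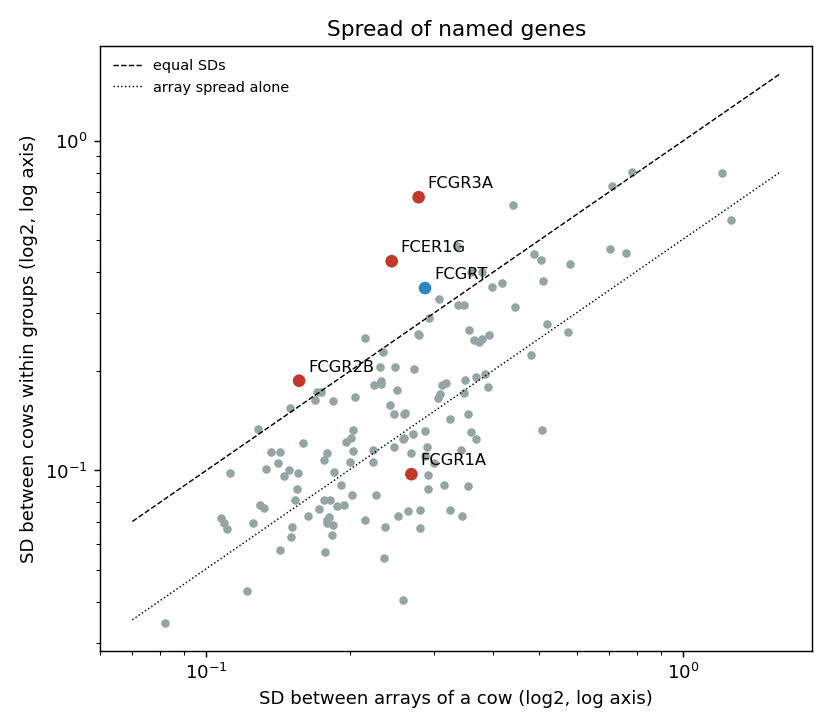
SD between cows within groups (vertical log axis) against the SD between arrays of a cow (horizontal log axis), in log2 units, for the 141 named genes as deposited. Red points are the 4 genes, the blue point is FCGRT, the dashed line marks equal SDs and the dotted line the ratio of 0.50 that array spread alone would give. FCGR3A and FCER1G lie farthest above the dashed line, and FCGR1A below the dotted one.

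The arrays with unsettled sign bear on this order. With the 3 arrays turned the ratio was 2.67 for FCGR3A (rank 3), 1.42 for FCER1G (rank 11), 1.20 for FCGR2B (rank 18) and 0.25 for FCGR1A (rank 135), while FCGRT, at 2.43 (rank 5), stood above FCER1G. With both affected cows left out, an alternative chosen after seeing the data, it was 3.01 for FCGR3A (rank 2), 1.06 for FCER1G (rank 22), 1.41 for FCGR2B (rank 9) and 0.29 for FCGR1A (rank 122). The high rank of FCER1G thus rested in part on these 2 cows, and that of FCGR3A did not.

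The same contrast shows in the arrays themselves. Of 12 pairs of cows from the same group, 9 had FCER1G arrays that did not overlap at all (6 with the arrays turned), 7 had such FCGR3A arrays (7 turned), 4 such FCGR2B arrays (5 turned) and 0 such FCGR1A arrays. Over all named genes 11.3% of such pairs did not overlap, and the median gene had 1 of 12. As deposited, FCER1G ranked 1 in this count, and FCGR3A ranked 2 together with CASP1. With the arrays turned CCL3 ranked 1, FCGR3A shared rank 2 with other genes and FCER1G ranked 8.

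FCGRT, the neonatal Fc receptor, protects immunoglobulin G from breakdown and pairs with beta-2 microglobulin. It was the other gene on the array whose symbol is that of an Fc receptor. It had ratios of −0.34, −0.66 and 0.05 in the shared cow and high-Ab cows 2 and 3, against 0.03, 0.23 and −0.44 in low-Ab cows 1 to 3, a difference of −0.26 ± 0.24 that did not pass (adjusted p = 0.938, limma). In the cell-mediated groups it had −0.34, −0.42 and −0.08 in high-DTH cows, against 0.10, 0.38 and −0.28 in low-DTH cows, which differed by −0.35 ± 0.19 (adjusted p = 0.585). With the arrays turned these differences were −0.14 and −0.22. Its cow values followed those of FCGR3A, with r = 0.80 and rho = 0.80 over the 11 cows and r = 0.76 with the arrays turned, and it was the named gene most like FCGR3A.

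Likeness between genes was measured as Pearson's r of cow values over the 11 cows, as a description, and all these genes were read on the same arrays. FCER1G was most like LOC407171 (r = 0.88), a gene the files do not name further. The symbol does not show whether LOC407171 is itself an Fc receptor. Next came TNFRSF1A, a receptor of tumour necrosis factor (0.81), and GAPDH, an enzyme of glycolysis (0.81). With the arrays turned LOC407171 stayed first (0.90), CSF2RB, the shared beta chain of myeloid growth factor receptors, came second (0.89), and TNFRSF1A (0.76) and GAPDH (0.63) ranked 6 and 11. By spot number LOC407171 had 8 spots between those of FCGR3A and FCGR2B and 8 spots elsewhere. Both sets followed FCER1G, with r of 0.90 and 0.82. Its own values ran from −0.27 in high-Ab cow 2 to 0.27 in high-DTH cow 3, which were also low and high for FCER1G.

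FCGR2B was most like PSMC5, a subunit of the proteasome (r = 0.80), CD40, a costimulatory receptor of B cells and antigen-presenting cells (r = 0.80, rho = 0.90), and BOLA-DMA, which loads peptides onto MHC class II (0.70). CD40 was lower in each high-DTH cow than in each low-DTH cow, by −0.30 ± 0.12 (unadjusted p = 0.0519), unlike FCGR2B, whose groups overlapped, and 15.6% of the named genes had no overlap there. FCGR3A was most like FCGRT, SLC11A1, a metal transporter of phagocytes (0.72), and STAT6, which acts downstream of interleukin 4 (0.65). FCGR1A was most like the complement gene C4A (0.82), LTBP2, a protein of the extracellular matrix (0.81), and the ribosomal gene RPL19 (0.71). With the arrays turned their ranks were 3 for C4A (0.70), 1 for LTBP2 (0.79) and 8 for RPL19 (0.62), with PRP6 at rank 2 (0.72), and the spread of FCGR1A between cows was no larger than its arrays would give.

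Place in the numbering of the spots moved with such likeness. Spots with consecutive numbers are called neighbouring here, and coordinates on the array were not used. Over 115 pairs of named genes with neighbouring spots the median r was 0.35, against 0.01 over all pairs of named genes. FCGR3A and FCGRT are such neighbours, and 8 of the 115 pairs had an r of at least theirs. Among the other neighbours r was 0.39 for FCGR3A and LOC407171, 0.35 for FCER1G and IGHM, 0.15 for FCGR2B and JCHAIN, −0.05 for FCGR1A and FCGRT, −0.09 for FCER1G and FCGR1A, and −0.19 for FCGR2B and LOC407171. The part of position in the likeness of FCGR3A and FCGRT was not tested.

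Among the 4 genes themselves no correlation of cow values passed adjustment over 11 cows, with 6 pairs tested and the lowest adjusted permutation p at 0.569. The closest pair was FCER1G and FCGR3A, the chain and a receptor that signals through it in mice and humans. Their r was 0.46 (permutation p = 0.152, adjusted 0.803) and their rho 0.54 (permutation p = 0.0949, adjusted 0.569). Without the 2 cows farthest from the median r was 0.42. High-Ab cow 3 was low for FCER1G, at −0.36, and high for FCGR3A, at 0.91. FCER1G and the inhibitory FCGR2B had r = −0.31 (adjusted p = 0.803).

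In a reference table of the bovine genome (ARS-UCD2.0) all 4 genes lie on chromosome 3, which the array files themselves do not state. FCGR2B and FCGR3A are next to each other there, FCER1G is 10 coding genes away from FCGR2B, and FCGR1A lies far off. The neighbours FCGR2B and FCGR3A did not vary together in these cows (r = −0.01, adjusted p = 0.987).

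**Figure D4:**
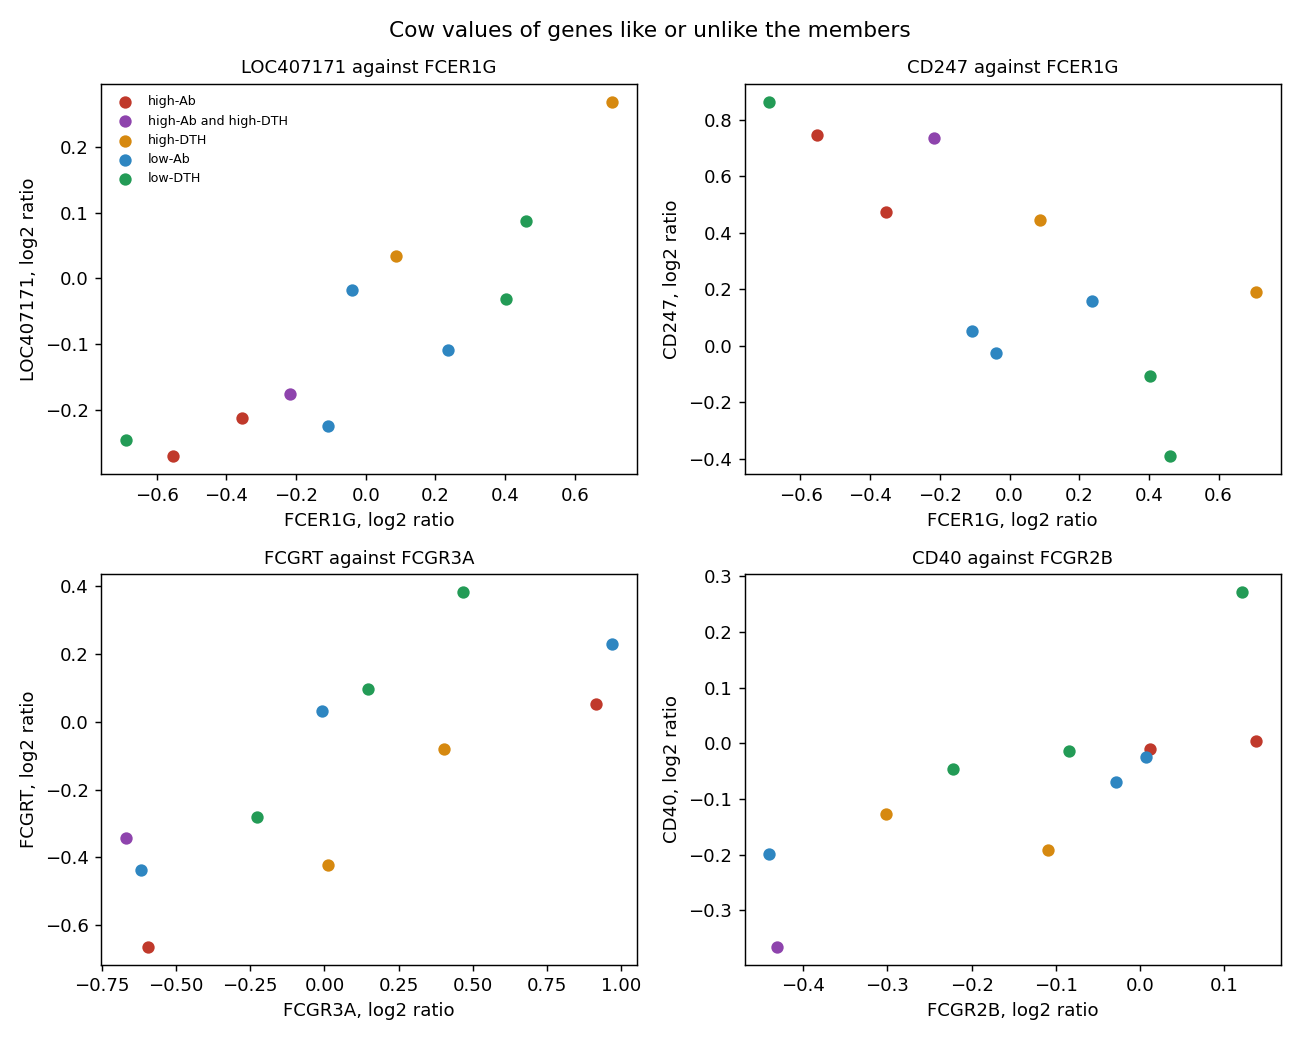
Cow values in log2 ratios as deposited, 1 point per cow, coloured by group: LOC407171 and CD247 against FCER1G in the upper row, and FCGRT against FCGR3A and CD40 against FCGR2B in the lower row. LOC407171 rises with FCER1G (r = 0.88) and CD247 falls (r = −0.76).

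Partners and pathway genes were read from lists, which held few genes of the Fc receptor pathway on this array. As a background for the directions below, 77 named genes were below 0 and 64 above it in the antibody comparison. In the cell-mediated comparison 85 were below 0 and 56 above it. Of 20 listed partners and signalling genes only CD247 was measured, the zeta chain of the T cell receptor, a relative of FCER1G that can take its place with FCGR3A in human natural killer cells. CD247 had ratios of 0.73 in the shared cow, 0.75 in high-Ab cow 2 and 0.47 in high-Ab cow 3, against −0.03, 0.16 and 0.05 in low-Ab cows 1 to 3. The groups did not overlap, in the opposite direction to FCER1G, and 10.6% of the named genes showed no overlap there. Its difference of 0.59 ± 0.11 had the lowest p of the named genes and did not pass (adjusted p = 0.217, limma), and it was 0.45 with the arrays turned. Over the 11 cows CD247 and FCER1G had r = −0.76 (rho = −0.76). Low-DTH cow 3, lowest for FCER1G, was highest for CD247 at 0.87. Of the other T cell genes measured, CD4 (r = −0.67) and CD27 (−0.44) also ran against FCER1G. For CD3D, CD3E, CD3G, CD28 and CD5 r with FCER1G lay between −0.19 and 0.10 (−0.35 to 0.01 with the arrays turned).

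Some markers of other cells moved with FCER1G from cow to cow, and others of the same list ran against it. The monocyte marker CD14 had r = 0.79 with FCER1G over the 11 cows, ranked 4 of 140 genes. SIRPA, an inhibitory receptor of myeloid cells, had r = 0.76, ranked 7. Of the other measured monocyte and macrophage genes, TLR4 (r = 0.59) and TLR2 (0.56) followed FCER1G less closely. CD80 (−0.75) and CD86 (−0.31) ran against it (−0.54 and −0.06 with the arrays turned). In the antibody comparison, where FCER1G differed by −0.40, CD14 differed by −0.05 ± 0.10 and SIRPA by −0.19 ± 0.16. With the arrays turned these values were −0.02 ± 0.08 and −0.21 ± 0.17, and CD14 in low-Ab cow 1 was −0.09. CD14 had ratios of −0.23, −0.05 and −0.19 in the shared cow and high-Ab cows 2 and 3, against 0.01, −0.16 and −0.17 in low-Ab cows 1 to 3, and these groups overlapped. Of 16 listed monocyte and macrophage genes 6 were measured and 0 passed, with 5 of 6 below 0 and a median of −0.07 in the antibody comparison, and 3 of 6 below 0 and a median of 0.00 in the cell-mediated one. TLR4 alone of them had groups without overlap, in the cell-mediated comparison (0.15 ± 0.09), where 15.6% of the named genes showed this.

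In the antibody comparison most T cell genes had values of the opposite sign to FCER1G, without passing the test. Of 12 listed, 8 were measured and 0 passed, with 7 of 8 above 0 there and a median of 0.30 (0.23 with the arrays turned). CD247, CD3D (0.62 ± 0.21) and CD3G (0.53 ± 0.18) had an unadjusted p under 0.05 and no overlap there. CD4 (0.19 ± 0.10) had no overlap either. Of all named genes 7.09% had an unadjusted p under 0.05 in that comparison, and 10.6% had no overlap. In the cell-mediated comparison, where FCER1G was above 0 too, 7 of 8 were above 0 with a median of 0.26, and CD3D (0.68 ± 0.11), CD3G (0.56 ± 0.16) and CD3E (0.35 ± 0.16) had no overlap, which with the arrays turned held for CD3D but not for CD3G and CD3E. In the cell-mediated comparison 15.6% of the named genes had no overlap. The gamma delta T cell gene CD163L1, at 0.76 ± 0.35 and 0.45 ± 0.37, did not pass either. The part of the mix of cells in the FCER1G difference was not tested.

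The natural killer list had 1 of 12 genes measured, the chemokine XCL1, which differed by −0.16 ± 0.15 in the antibody comparison (−0.28 with the arrays turned, then without overlap) and had r = −0.09 with FCGR3A. Of 10 neutrophil genes 2 were measured. CXCR2 differed by −0.02 ± 0.10 between high-Ab and low-Ab cows, and the granule gene LTF by −1.04 ± 0.54 (unadjusted p = 0.0980, limma), with r = 0.10 with FCER1G and −0.10 with FCGR3A. LTF had the largest SD between arrays of a cow of all named genes, at 1.26, which is more than that difference. No platelet gene of 5 listed was measured. The B cell markers MS4A1 and CD79A were not measured, nor the natural killer marker NCR1.

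The ligand side was represented by immunoglobulin genes. Of 18 listed immunoglobulin and B cell genes 5 were measured and 0 passed, with 4 of 5 below 0 and a median of −0.05 in the antibody comparison, and 5 of 5 below 0 and a median of −0.26 in the cell-mediated one. IGCGAMMA, annotated as an immunoglobulin constant region, averaged 0.02 ± 0.33 in high-Ab cows and 0.31 ± 0.28 in low-Ab cows (SD, n = 3 each), a difference of −0.28 ± 0.21 (adjusted p = 0.924, limma) that was −0.16 ± 0.28 with the arrays turned. In the cell-mediated comparison it differed by −0.23 ± 0.25 with overlap as deposited, and by −0.39 ± 0.16 without overlap when the arrays were turned. JCHAIN, the joining chain of secreted antibody, differed by −0.32 ± 0.13 between high-Ab and low-Ab cows (unadjusted p = 0.0488), but by −0.17 with the arrays turned. In that comparison 7.09% of the named genes had an unadjusted p under 0.05. Between high-DTH and low-DTH cows CD40 and CD72, an inhibitory receptor of B cells (−0.13 ± 0.09), had no overlap, which 15.6% of the named genes showed.

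Cytokine pathways that are known to act on Fc receptors in mice and humans were measured in part. Of 17 interferon gamma and response genes 7 were measured and 0 passed. All 7 were above 0 in the antibody comparison, with a median of 0.10, and 6 of 7 were below 0 in the cell-mediated one, with a median of −0.06. In the cell-mediated comparison B2M (0.38 ± 0.13), PSMB10 (−0.36 ± 0.13) and PSMB9 (−0.38 ± 0.15) had an unadjusted p under 0.05 and no overlap, which B2M lost with the arrays turned. Of all named genes 8.51% had an unadjusted p under 0.05 in the cell-mediated comparison, and 15.6% had no overlap. All 9 listed genes of type 2 and regulatory cytokines were measured and 0 passed in either comparison, with medians of −0.05 and −0.02. Of the complement genes C3 and C4A were measured, of 18 listed, and 0 passed.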

How the data were processed

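The authors deposited 1 log ratio per spot and array, read as log2, for 44 arrays on which a cow's RNA and a common standard were labelled with Alexa647 and Alexa555, per the labels. The log base, direction, scanner, background correction and normalization are each not given in the sources used here, and no intensities were analysed. Genes were named from the platform's probe annotation. Spots of a gene were averaged, then arrays within each dye orientation, then both orientations, to 1 value per cow, with no pseudocount or filter on low values. limma 3.58.1 in R 4.3.3 (lmFit, eBayes) was fitted over all named genes and unnamed spots with Benjamini-Hochberg adjustment at 0.05, and was tested on simulated data. Correlations used 100000 permutations. Precision is limited by how many arrays and cows there are. Nothing in the labels beyond the cow numbers says that cows were sampled separately. The members were described in full, with the 3 genes most like each and, from each list, genes with an unadjusted p under 0.05 or groups without overlap, plus cell markers. The members and lists were chosen with earlier results of these data known, and IGCGAMMA entered its list after the array's gene names were read. Alternatives were the sign of 3 arrays, dyes, array sets, centring, quantile normalization, medians of spots, array-level and blocked fits, named genes only and leaving out each cow.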

Additional observations from a re-analysis of the deposited data

Results flagged for a closer look

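FCGR1A in high-Ab cow 3 stood at 0.076, away from the other 4 high cows, which lay between −0.06 and −0.05. Its gap to the nearest of them was large for the range of the 5 high cows, a mark that chance gives in about 1 of 20 groups. The same rule was applied to the high and to the low cows for each of the 4 genes, and it marked this value alone. The arrays of this cow ran from −0.22 to 0.21, so the gap is smaller than the spread between them.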

How the results depend on the processing

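Across the 4 genes and the 4 comparisons, 303 of 344 alternative values kept their direction and their side of the threshold. Among these alternatives FCER1G between high-Ab and low-Ab cows passed in the array-level fit alone (−0.40, adjusted p = 0.0284, limma). Their adjusted p ran from 0.0284 to 0.997, and the difference lay between −0.48 and −0.30 when each cow was left out. The array-level fit with the 3 arrays turned, which is not among the 344, passed as well (−0.42, adjusted p = 0.0136, limma). Array-level fits called 16 features for Ab, 2 for DTH, 3 for the difference between traits and 9 for all high against all low cows. The 7 features called for the difference between traits fell to 2 among named genes only and to 0 in the settings with the arrays turned or left out, with either dye or either array set alone, with quantile normalization and with the cow number as a block. Leaving out each cow gave 0 to 7 such calls, and 0 to 1 for Ab.

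Directions turned for 40 of the 344 alternative values, 15 of them with all cows kept and 25 with a cow left out. The 15 were as follows. FCGR1A was 0.0022 for Ab in Alexa555 alone, 0.16 over arrays 1 and 2 and 0.060 after quantile normalization. Its difference between traits was −0.015 with the arrays turned, with or without the block, and −0.17 over later arrays. For all high against all low cows it was 0.0035 in Alexa555, 0.039 over arrays 1 and 2 and 0.0055 after quantile normalization, and FCGR2B was 0.025 over later arrays. FCER1G for DTH was −0.087 over later arrays. The FCGR3A difference between traits was 0.16 in Alexa555, 0.15 over arrays 1 and 2, 0.12 after quantile normalization and 0.025 in the array-level fit. The cause was not tested.

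Leaving out each cow gave for Ab −0.074 to 0.077 (FCGR1A), −0.083 to 0.23 (FCGR2B) and −0.75 to 0.20 (FCGR3A); for DTH −0.24 to 0.34 (FCER1G) and −0.46 to 0.078 (FCGR3A); for the difference between traits −0.020 to 0.13 (FCGR1A) and −0.53 to 0.41 (FCGR3A); and for all cows −0.30 to 0.012 (FCER1G), −0.053 to 0.0071 (FCGR1A), −0.10 to 0.042 (FCGR2B) and −0.33 to 0.062 (FCGR3A).

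Cows of the same number in a high and a low group did not deviate together (r between −0.51 and −0.13). With 3 cows per group this cannot tell whether the numbers pair animals, which the labels do not state. With the cow number as a replicate block FCER1G for Ab was −0.40 (adjusted p = 0.845), and the block combined with turned arrays, added after seeing the data, gave −0.42 (adjusted p = 0.477). No spot intensities were analysed, so signal over background is unknown.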
